A study of Mus musculus with 13 samples.

Results

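Nuclear-encoded subunits of the oxidative phosphorylation machinery were followed in RNA sequencing of mouse common lymphoid progenitors, or CLP, a bone marrow population that gives rise to lymphocytes. The members were the protein-coding RefSeq rows (identifiers starting with NM) whose mouse symbol starts with Ndufa, Ndufb, Ndufc, Ndufs, Ndufv, Uqcr, Cox4i, Cox5, Cox6, Cox7, Cox8 or Atp5, or equals Sdha, Sdhb, Sdhc, Sdhd, Cyc1 or Cycs, with the Ndufaf assembly factors left out. This gave 85 members of the 24072 identifiers measured: 35 of complex I, 4 of complex II, 10 of complex III with cytochrome c, 19 of complex IV and 17 of complex V. Ndufa4 and Ndufa4l2 were placed in complex IV, where the Ndufa4 protein resides despite its symbol. The rule used names only and no level of a member, but the family was chosen with earlier results of these data known.

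The study sorted CLP from the bone marrow of wild-type C57BL/6 mice by flow cytometry on the surface proteins Ly6D and Gfra2, with no treatment or genetic change in any group, and asked how these compartments differ. The groups were Ly6D-Gfra2- (6 libraries), Ly6D+Gfra2- (4 libraries) and Ly6D+Gfra2+ (3 libraries). Ly6D is known as a marker of CLP biased to B cell fate. Gfra2 binds neurturin as part of a receptor. The labels give no age or sex and do not say whether libraries came from separate animals, so a p-value here reflects the spread among the libraries, which may be technical.

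Oxidative phosphorylation makes ATP at the inner mitochondrial membrane. Complexes I and II feed electrons from NADH and succinate to ubiquinone, complex III passes them to cytochrome c, and complex IV passes them to oxygen. Complexes I, III and IV pump protons, and complex V, the ATP synthase, uses the proton gradient to make ATP. Most subunits are encoded in the nucleus and imported, while a core set is encoded by mitochondrial DNA and was not analysed here. Several subunits have paralogs that are used in different tissues, such as the Cox6a2, Cox7a1 and Cox8b forms known from heart and skeletal muscle. Lymphoid progenitors use both glycolysis and mitochondrial respiration, and the balance between them shifts as cells divide or rest.

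Total counts ranged from 6892728 to 23705975 per library, and the members took 4476 to 6509.6 CPM (counts per 1000000 counted). The CLP markers, among them Il7r, Flt3, Dntt and Rag1, summed to 5154 to 5916 CPM in Ly6D-Gfra2- libraries, 5737 to 6956 in Ly6D+Gfra2- libraries and 7869.9 to 8998 in Ly6D+Gfra2+ libraries (here and below, CPM of the TMM-scaled library size). The list includes the sorted markers Ly6d and Gfra2, so its sum was partly set by the sort. Fitted log2 fold changes of Ly6D+Gfra2+ minus Ly6D-Gfra2- were 4.03 for Rag1, 1.19 for Il7r and 1.19 for Rag2. Flt3, Dntt and Kit were at -0.065, 0.074 and -0.45. The B lineage list, which includes Ebf1, Pax5 and Cd79a, summed to 24.96 to 144, 144 to 203 and 1304 to 1361 CPM. Ly6d, the gene of the sorted marker, stood in the library labelled Ly6D-Gfra2- replicate 3 at 213 CPM, against 0.623 to 8.302 in the other 5 of its group, which goes against its label. Identifiers detected ran from 12904 to 13969 in Ly6D-Gfra2-, 11636 to 13364 in Ly6D+Gfra2- and 10837 to 12369 in Ly6D+Gfra2+ libraries. All Ly6D+Gfra2+ libraries were thus below all Ly6D-Gfra2- libraries. Ly6D+Gfra2- replicate 1 and Ly6D+Gfra2+ replicate 5 detected the fewest, 11636 and 10837. Each library name starts with P or T, and the labels do not explain this prefix. Ly6D-Gfra2- replicates 1 to 3 and Ly6D+Gfra2- replicates 1 and 2 have P, all others T, and no Ly6D+Gfra2+ library has P. The prefix was a term of the fit. Within prefix T, the ribosomal RNA gene Rn45s took 2.07% to 3.75% of counts in Ly6D-Gfra2- libraries. It took 3.37% and 4.86% in Ly6D+Gfra2- and 4.40% to 7.44% in Ly6D+Gfra2+ libraries. Detection and this share thus differed along with the groups, and their part in the comparisons was not tested. In these bulk samples, fewer cells of a type and less RNA per cell cannot be told apart.

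Promoter windows were read for the members because nuclear respiratory factors and ETS-family factors are known regulators of respiratory chain genes. In the RefSeq promoter table (GRCm38.p6), 68 of the 85 members had a window, 73 windows in all, searched over the 250 bases before the start on both strands. The NRF1 letters GCATGCGC (reverse GCGCATGC) stood in 9 of the 73 windows (12.3%), against 2.26% of all 32851 windows of that length. The ETS letters CCGGAAG (reverse CTTCCGG) stood in 12 member windows (16.4%), against 6.91% of all windows. The 9 members with the NRF1 letters were Atp5g2, Atp5k, Atp5l, Cox6a1, Cycs, Ndufa11, Ndufa6, Ndufa8 and Sdhb. No binding was measured here, so a match is only a description of the letters. The windows of 3 members are shown, chosen after the matches were seen: Cox6a1, which holds both motifs and is the paralog of the member with the smallest p between groups, Cycs, which holds the NRF1 letters, and Atp5b, the most abundant member, which holds neither. They lie at chr5:115348959-115349208 (minus strand), chr6:50566570-50566819 (minus strand) and chr10:128083057-128083306 (plus strand), are written 5′ to 3′ and end at the base before the start site, with motif matches in capitals. In Cox6a1 the capitals near the middle are 2 overlapping NRF1 matches, and those near the end are the ETS match.
Cox6a1: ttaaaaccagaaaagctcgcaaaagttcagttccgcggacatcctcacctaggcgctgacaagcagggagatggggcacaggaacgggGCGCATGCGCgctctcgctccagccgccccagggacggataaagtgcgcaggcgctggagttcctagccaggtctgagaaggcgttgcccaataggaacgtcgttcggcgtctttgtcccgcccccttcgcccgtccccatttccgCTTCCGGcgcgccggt
Cycs: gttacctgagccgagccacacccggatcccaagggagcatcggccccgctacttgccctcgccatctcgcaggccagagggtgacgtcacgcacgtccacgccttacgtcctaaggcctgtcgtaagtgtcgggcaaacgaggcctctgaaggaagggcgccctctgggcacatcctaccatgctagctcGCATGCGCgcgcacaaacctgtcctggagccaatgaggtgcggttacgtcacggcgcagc
Atp5b: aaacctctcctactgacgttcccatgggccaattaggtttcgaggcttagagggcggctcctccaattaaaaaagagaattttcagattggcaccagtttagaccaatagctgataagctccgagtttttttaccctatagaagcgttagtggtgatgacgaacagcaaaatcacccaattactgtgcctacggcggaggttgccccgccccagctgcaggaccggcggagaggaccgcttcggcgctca

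All 5 complexes were transcribed in every compartment, and their summed levels overlapped between compartments. Summed over its members as CPM per kb of transcript, the scale on which different genes can be compared, complex V was at 1480.5 to 2049 in Ly6D-Gfra2- libraries, 1490.1 to 2104 in Ly6D+Gfra2- libraries and 1749 to 2030.4 in Ly6D+Gfra2+ libraries. Complex IV was at 923 to 1488, 1052 to 2171 and 894 to 1381. The groups overlapped in both. Complex I was at 940.1 to 1318, 938 to 1368 and 951 to 1231, and complex III at 359 to 547, 367 to 759.7 and 350.2 to 515, again with overlap. Complex II was lowest, at 190.5 to 298, 219 to 229 and 199 to 232. The highest complex III and complex IV sums of all 13 libraries were both in Ly6D+Gfra2- replicate 1. As shares of the members' total per kb, complex V made up 38.03% ± 3.33 (SD, n = 13 libraries), complex IV 25.3% ± 3.83, complex I 22.6% ± 1.74, complex III 9.18% ± 1.12 and complex II 4.88% ± 0.793. No test was made of these sums.

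**Figure D1:**
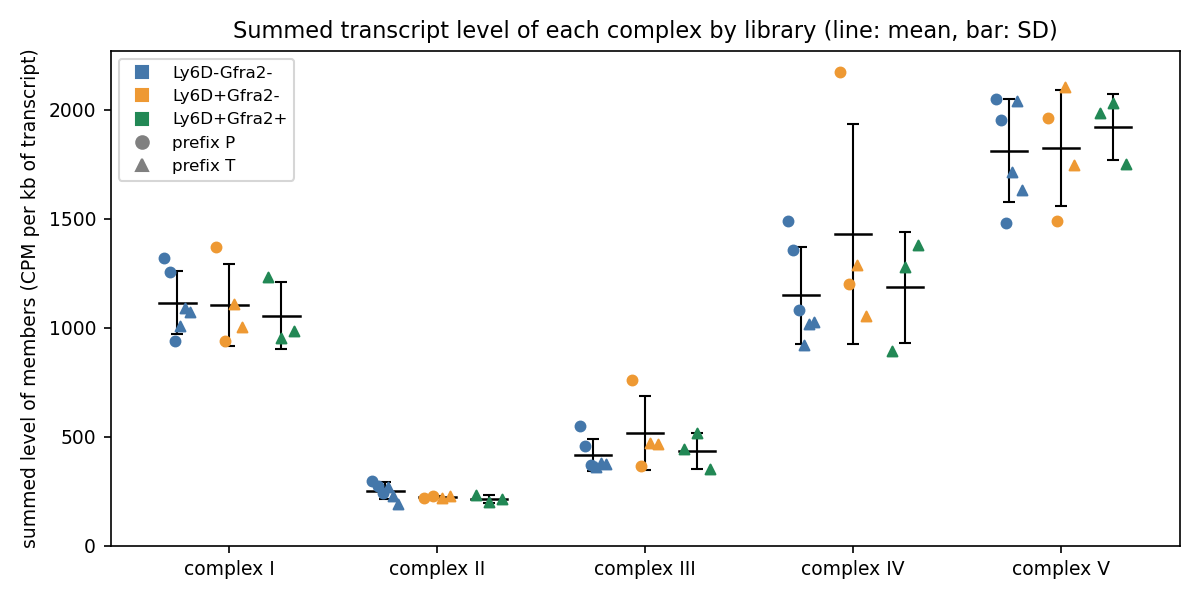
Summed level of each complex's members in each library (vertical axis, CPM per kb of transcript), by sorted group (colour) and library name prefix (shape), with the group mean as a line and the SD as a bar. The groups overlap in every complex, and Ly6D+Gfra2- replicate 1 is highest for complexes III and IV, at 759.7 and 2171.

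Within a complex, transcript levels per length were far from equal, although the subunits assemble in fixed ratios. Complex V was led by Atp5b, the catalytic beta subunit, at a mean of 813 CPM per kb over the 13 libraries, followed by Atp5a1, the alpha subunit that alternates with it in the ring, at 193. In Ly6D+Gfra2+ libraries Atp5e, a central stalk subunit gene, came second at 144, above Atp5a1 at 118. Atp5b alone gave 24.2% to 54.96% of the complex V sum. In complex I the means ran from 1.17 CPM per kb for Ndufab1, the mitochondrial acyl carrier protein, to 80.7 for Ndufb9, an accessory membrane-arm subunit. Complex II had Sdha, the flavoprotein that oxidises succinate, at 91.2 and Sdhd, a membrane anchor, at 85.5, above the iron-sulfur subunit Sdhb at 32.1 and the other anchor Sdhc at 25.5, though Sdhd was above Sdha in Ly6D+Gfra2+ libraries (100.5 against 73.96). In complex III the hinge protein gene Uqcrh, at 124, and Uqcr10, a small membrane subunit gene, at 124, were close, with Uqcr10 the higher in Ly6D+Gfra2- libraries (169 against 139). Cytochrome c itself, Cycs, was lowest at 1.21. Cyc1, which encodes cytochrome c1, was at 43.8. Levels per kb depend on the length used, here the longest matching transcript. Ndufab1, Sdhc and Cycs have transcripts of 3479, 3171 and 3123 bases, of which 468, 507 and 315 are coding. Over coding length Sdhc would stand above Sdha, and Ndufab1 would not be the lowest of complex I. In complex IV the order differed by group: the highest mean was that of Cox8a in Ly6D-Gfra2- libraries (152), Cox6a2 in Ly6D+Gfra2- libraries (353) and Cox4i1 in Ly6D+Gfra2+ libraries (210.0). Cox6a2 was at 119 and 71.2 in Ly6D-Gfra2- and Ly6D+Gfra2+ libraries, below Cox8a, Cox4i1 and Cox6a1 in both. Of the 85 members, 75 had at least 1 count in every library and 79 passed the filter on low counts. Cox4i2, Cox7a1, Cox7b2, Cox8b, Cox8c and Ndufa4l2 did not pass, and Cox7b2 and Cox8c had 0 counts in all 13 libraries, which allows at most 0.0184 CPM (3 counts over all libraries, counting error only). The levels of 11 members are less certain: these have a pseudogene named after them with the ending -ps (Atp5c1, Atp5k, Atp5l, Atp5pb, Cox5b, Cox7c, Cycs, Ndufa12, Ndufab1, Ndufs5 and Uqcrh), and how the authors treated reads that fit several places is not stated. Copies under other names were not searched for, so the other members may have some too.

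**Figure D2:**
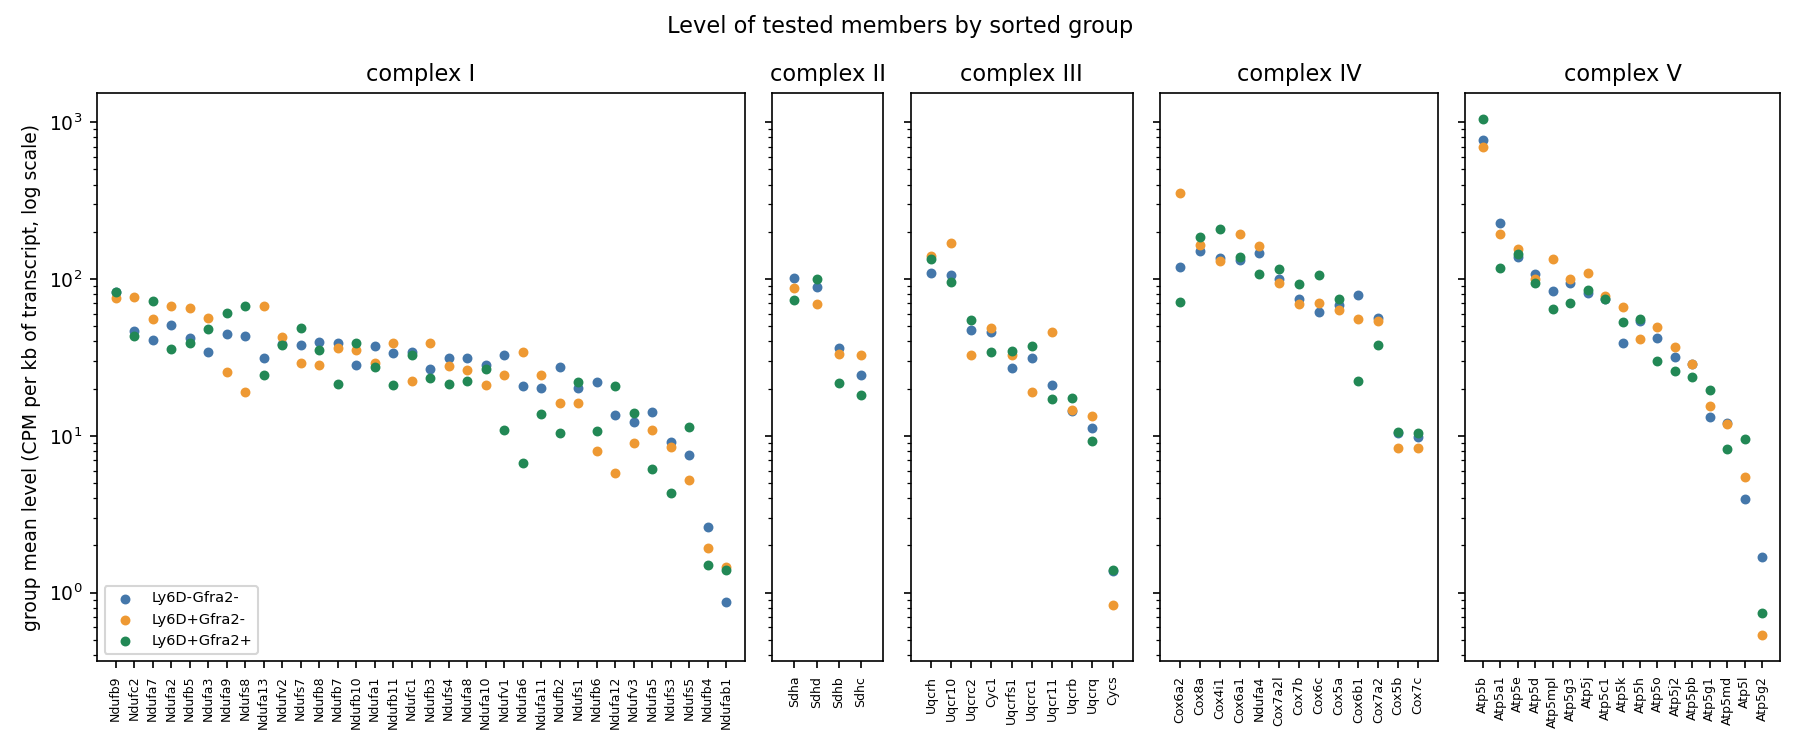
Mean level of 78 of the 79 tested members in each sorted group (vertical axis, CPM per kb of transcript, log scale), members ordered by level within each complex. Atp5b stands above all other members, and for most members the 3 group means lie close together beside the spread of levels within a complex.

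No member differed between any 2 compartments by edgeR's quasi-likelihood test at a Benjamini-Hochberg adjusted p under 0.05, the threshold used for a call throughout. Between Ly6D+Gfra2- and Ly6D-Gfra2- cells 0 of 79 members were called, where 0% of all 12722 genes tested were. Even Ly6d, the gene of the marker that separates these groups, was not called there, at a log2 fold change of 4.12 (adjusted p = 0.807, SE 1.33). Between Ly6D+Gfra2+ and Ly6D+Gfra2- cells 0 members were called, where 0.409% of all genes were, and between Ly6D+Gfra2+ and Ly6D-Gfra2- cells 0 members, where 1.39% of all genes were. At an unadjusted p under 0.05, 4, 5 and 3 members stood out, 5.06%, 6.33% and 3.797% of the 79, against 4.71%, 13.2% and 15.4% of all genes. A log2 fold change beyond 1 in either direction was fitted for 7, 12 and 8 members (8.86%, 15.2% and 10.1%), against 18.1%, 35.5% and 33.9% of all genes. Voom in limma called 0 members in each comparison, where it called 0.00786%, 0.197% and 0.857% of all genes. DESeq2 called 0, 1 and 0 members, the 1 being Cox6a2 between Ly6D+Gfra2+ and Ly6D+Gfra2- cells, where it called 0.364%, 5.86% and 7.47% of all genes. The median log2 fold change of the members, the first group minus the second, was -0.040 for Ly6D+Gfra2- minus Ly6D-Gfra2-, 0.086 for Ly6D+Gfra2+ minus Ly6D+Gfra2- and 0.035 for Ly6D+Gfra2+ minus Ly6D-Gfra2-, beside -0.0058, 0.025 and 0.013 over all genes. Positive values were found for 36, 42 and 41 of the 79. Any 2 of the comparisons share a group of libraries. With library size alone in place of TMM scaling, the median of all genes moved to -0.090, -0.15 and -0.25, and that of the members to -0.14, -0.10 and -0.24, so the sign of a median this small depends on the scaling.

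The absence of a call does not show equal levels. The 95% interval of a member's log2 fold change reached a median of 0.978, 1.22 and 1.18 to either side in the 3 comparisons. It lay wholly between -1 and 1, that is within a 2-fold change, for 18 of 79 members (22.8%) between Ly6D+Gfra2- and Ly6D-Gfra2- cells and for 7 (8.86%) and 7 (8.86%) in the comparisons with Ly6D+Gfra2+ cells, against Ly6D+Gfra2- and Ly6D-Gfra2- cells in turn. For the other members the interval reached past a 2-fold change. By complex, the median log2 fold change between Ly6D+Gfra2- and Ly6D-Gfra2- cells was -0.29 for complex I (13 of 35 positive), -0.18 for complex II (1 of 4), 0.17 for complex III (6 of 10), -0.040 for complex IV (5 of 13 tested) and 0.085 for complex V (11 of 17). Between Ly6D+Gfra2+ and Ly6D+Gfra2- cells the medians were -0.041, -0.34, 0.23, 0.24 and 0.11, and between Ly6D+Gfra2+ and Ly6D-Gfra2- cells -0.093, -0.22, 0.38, 0.20 and -0.096. All of these lie inside the middle range of all genes tested, -0.43 to 0.35, -0.70 to 0.62 and -0.73 to 0.57 (lower to upper quartile). That range describes single genes, and a median of several genes varies less. Lying inside it therefore does not show that a complex is unchanged.

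**Figure D3:**
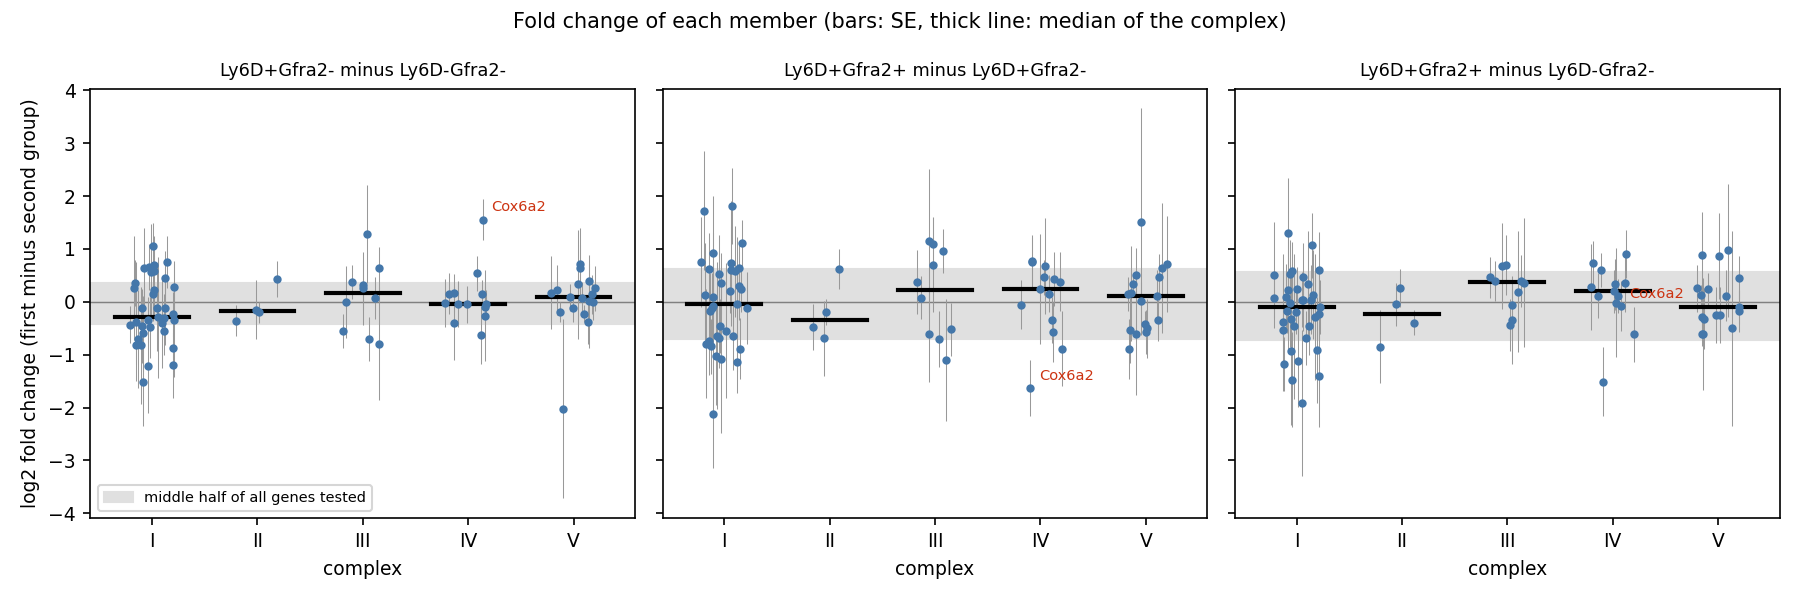
Log2 fold change of each tested member by complex in the 3 comparisons (vertical axis, the first group minus the second), with its SE as a bar, the complex median as a thick line and the lower to upper quartile of all genes tested as a grey band. The medians lie within the band, which describes single genes and not medians. Cox6a2 is at 1.55 and -1.63 in the left and middle panels and at -0.081 in the right panel.

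The levels of a few members did not overlap between 2 groups. Between Ly6D+Gfra2- and Ly6D-Gfra2- cells this held for 1 of 79 members, where it held for 1.53% of all genes. It held for 5 members between Ly6D+Gfra2+ and Ly6D+Gfra2- cells, where it held for 9.71% of all genes, and for 4 between Ly6D+Gfra2+ and Ly6D-Gfra2- cells, where it held for 10.2%. The members' shares, 1.27%, 6.33% and 5.06%, are below or near those of all genes. The members were Uqcr10 in the first comparison, Cox6a2, Ndufa9, Ndufa6, Atp5a1 and Ndufv1 in the second, and Cox6b1, Ndufv1, Cox6c and Ndufs3 in the third. Uqcr10, Ndufa6 and Ndufs3 fall outside the rule for named genes and were chosen after their values were seen.

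Complex I takes electrons from NADH through the subunits Ndufv1, which binds NADH and flavin, and the iron-sulfur and quinone-site subunits Ndufs1, Ndufs3, Ndufs7, Ndufs8 and Ndufv2, among others, while the many Ndufa, Ndufb and Ndufc subunits are accessory. Ndufv1 (NM_133666, chr19:4007499-4012755) had a lowest, median and highest level of 24.5, 46.5 and 96.7 CPM in Ly6D-Gfra2- libraries. Its Ly6D+Gfra2- replicates 1, 2, 5 and 6 were at 27.98, 61.97, 46.9 and 26.6 CPM and its Ly6D+Gfra2+ replicates 4, 5 and 6 at 16.4, 13.8 and 23.9. All 3 Ly6D+Gfra2+ libraries lay below every other library. Its log2 fold change was -1.18 (adjusted p = 0.283, SE 0.517) against Ly6D-Gfra2- cells and -0.85 against Ly6D+Gfra2- cells. Ndufs8 (NM_001271444, chr19:3908863-3912774) was at 24.8, 38.6 and 74.03 CPM (lowest, median, highest) in Ly6D-Gfra2- libraries. It reached 152 CPM in Ly6D+Gfra2+ replicate 5 but 28.9 and 18.2 in replicates 4 and 6, and 6.82, 18.3, 25.02 and 24.6 in the Ly6D+Gfra2- libraries. Its log2 fold change of 1.81 (adjusted p = 0.289, SE 0.719) between Ly6D+Gfra2+ and Ly6D+Gfra2- cells rests on that library: without Ly6D+Gfra2+ replicate 5 it was 0.31. Ndufs3 was at 6.94, 9.14 and 13.1 CPM (lowest, median, highest) in Ly6D-Gfra2- libraries and 2.18, 6.103 and 5.200 in Ly6D+Gfra2+ libraries, without overlap and at low levels, with a log2 fold change of -1.13 (adjusted p = 0.5901, SE 0.8702).

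Among the accessory subunits, Ndufa9 (NM_025358, chr6:126821863-126849144) had its lowest group mean in Ly6D+Gfra2- cells. Its levels were 44.2, 56.5 and 94.6 CPM (lowest, median, highest) in Ly6D-Gfra2- libraries, 28.4, 22.3, 57.5 and 38.3 in Ly6D+Gfra2- replicates 1, 2, 5 and 6, and 87.3, 99.6 and 74.5 in Ly6D+Gfra2+ replicates 4, 5 and 6. The Ly6D+Gfra2+ libraries lay above all Ly6D+Gfra2- libraries, and the Ly6D+Gfra2- and Ly6D-Gfra2- libraries overlapped. The log2 fold change was 1.11 (adjusted p = 0.277, SE 0.432) between Ly6D+Gfra2+ and Ly6D+Gfra2- cells and -0.87 (adjusted p = 0.993, SE 0.358) between Ly6D+Gfra2- and Ly6D-Gfra2- cells. Ndufa13 (NM_023312, chr8:69894163-69902558), also known as Grim19, was at 188, 37.3, 34.6 and 79.1 CPM in Ly6D+Gfra2- libraries, against 30.2, 37.1 and 51.03 (lowest, median, highest) in Ly6D-Gfra2- libraries and 34.6, 35.4 and 21.9 in Ly6D+Gfra2+ libraries. Its log2 fold change of 1.05 (adjusted p = 0.988, SE 0.431) between Ly6D+Gfra2- and Ly6D-Gfra2- cells rests on Ly6D+Gfra2- replicate 1, since without that library it was 0.36. Ndufa6 was at 30.6, 25.5, 14.9 and 9.74 CPM in Ly6D+Gfra2- libraries and 1.72, 0.718 and 9.43 in Ly6D+Gfra2+ libraries, a log2 fold change of -2.13 (adjusted p = 0.3799, SE 1.01) without overlap but from low levels. Ndufa7 reached 72.7 CPM in Ly6D+Gfra2+ replicate 4 against 12.3 and 30.4 in replicates 5 and 6, so its log2 fold change of 1.07 against Ly6D-Gfra2- cells became 0.22 without that library. Ndufb9, the complex I member with the highest mean per length over the 13 libraries, was at 39.01, 58.98 and 77.3 CPM (lowest, median, highest) in Ly6D-Gfra2- libraries, 60.1, 53.1, 64.9 and 36.1 in Ly6D+Gfra2- libraries and 71.6, 54.1 and 49.3 in Ly6D+Gfra2+ libraries, and its groups overlapped. The lowest per kb of transcript, Ndufab1, stayed between 1.57 and 10.5 CPM.

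Complex II, succinate dehydrogenase, belongs to both the citric acid cycle and the respiratory chain. Sdha (NM_023281, chr13:74322255-74350240) was at 241, 293 and 355 CPM (lowest, median, highest) in Ly6D-Gfra2- libraries, 207, 266, 275 and 273 in Ly6D+Gfra2- libraries and 152, 236 and 256 in Ly6D+Gfra2+ libraries. All Ly6D+Gfra2+ values lay below the Ly6D-Gfra2- median, with a log2 fold change of -0.40 (adjusted p = 0.458, SE 0.239), which was -0.21 without Ly6D+Gfra2+ replicate 4. Sdhb was at 24.6, 35.9 and 66.1 CPM (lowest, median, highest) in Ly6D-Gfra2- libraries, 4.804, 56.1, 45.6 and 45.6 in Ly6D+Gfra2- libraries and 22.8, 14.8 and 36.9 in Ly6D+Gfra2+ libraries. Sdhc was at 31.3, 84.7 and 102 CPM (lowest, median, highest) in Ly6D-Gfra2- libraries, 185, 66.1, 77.3 and 86.3 in Ly6D+Gfra2- libraries and 68.5, 65.6 and 39.4 in Ly6D+Gfra2+ libraries. Ly6D+Gfra2- replicate 1 held the lowest Sdhb and the highest Sdhc of all 13 libraries. Sdhd was at 49.7, 122 and 139 CPM (lowest, median, highest) in Ly6D-Gfra2- libraries, 104, 83.4, 75.3 and 79.5 in Ly6D+Gfra2- libraries and 169.7, 103 and 98.3 in Ly6D+Gfra2+ libraries, and its groups overlapped. Summed as plain CPM, in which the long Sdha transcript weighs most, complex II was at 443 to 628 in Ly6D-Gfra2-, 472 to 501 in Ly6D+Gfra2- and 413 to 431 in Ly6D+Gfra2+ libraries. On that scale the Ly6D+Gfra2+ libraries lay below all others, which they did not per kb of transcript. The log2 fold changes of Sdha, Sdhb, Sdhc and Sdhd between Ly6D+Gfra2+ and Ly6D-Gfra2- cells were -0.40, -0.85, -0.047 and 0.26, with adjusted p from 0.458 to 0.976 by edgeR. That of Sdhb was -0.53 without Ly6D-Gfra2- replicate 4.

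Complex III is built on the core proteins Uqcrc1 and Uqcrc2, and its redox subunits are Cyc1 and the Rieske iron-sulfur protein Uqcrfs1. Uqcrc1 (NM_025407, chr9:108936648-108949641) was at 32.1, 48.4 and 88.9 CPM (lowest, median, highest) in Ly6D-Gfra2- libraries, 14.1, 44.6, 34.4 and 32.3 in Ly6D+Gfra2- libraries and 86.9, 38.4 and 60.1 in Ly6D+Gfra2+ libraries. Uqcrc2 (NM_025899, chr7:120635189-120659523) was at 67.03, 76.3 and 139.8 CPM (lowest, median, highest) in Ly6D-Gfra2- libraries, 84.7, 70.8, 53.2 and 40.9 in Ly6D+Gfra2- libraries and 156, 73.1 and 80.7 in Ly6D+Gfra2+ libraries. Both core genes had their lowest group mean in Ly6D+Gfra2- cells, with overlap. Their log2 fold changes between Ly6D+Gfra2+ and Ly6D+Gfra2- cells were 1.09 (adjusted p = 0.377, SE 0.516) and 0.96 (adjusted p = 0.336, SE 0.417). Without Ly6D+Gfra2+ replicate 4 that of Uqcrc2 was 0.53. Uqcrfs1 was at 22.1, 30.95 and 63.8 CPM (lowest, median, highest) in Ly6D-Gfra2- libraries, 86.3, 14.2, 39.9 and 38.6 in Ly6D+Gfra2- libraries and 64.7, 48.6 and 29.4 in Ly6D+Gfra2+ libraries and overlapped throughout. Uqcr10 was at 34.97, 47.98 and 51.5 CPM (lowest, median, highest) in Ly6D-Gfra2- libraries and 129, 55.9, 51.99 and 57.1 in Ly6D+Gfra2- libraries, where even the lowest stood just above the highest Ly6D-Gfra2- value, with a log2 fold change of 0.64 (adjusted p = 0.999, SE 0.396). Its Ly6D+Gfra2+ libraries, at 33.3, 70.5 and 21.3 CPM, spread over both. Uqcrh was at 43.7, 53.9 and 78.9 CPM (lowest, median, highest) in Ly6D-Gfra2- libraries, 107, 43.2, 66.00 and 88.9 in Ly6D+Gfra2- libraries and 68.7, 83.6 and 66.7 in Ly6D+Gfra2+ libraries. Cyc1 was at 44.6, 64.97 and 97.9 CPM (lowest, median, highest) in Ly6D-Gfra2- libraries, 30.1, 89.5, 116 and 57.8 in Ly6D+Gfra2- libraries and 29.4, 60.2 and 65.9 in Ly6D+Gfra2+ libraries. The groups overlapped for both. Cycs, with few counts, was at 1.95, 3.89 and 6.76 CPM (lowest, median, highest) in Ly6D-Gfra2- libraries, 5.45, 1.62, 0.2800 and 3.04 in Ly6D+Gfra2- libraries and 0.916, 3.23 and 8.88 in Ly6D+Gfra2+ libraries, again with overlap in every comparison.

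In complex IV the member with the smallest p was Cox6a2 (NM_009943, chr7:128205435-128206366), the form of subunit 6a known from heart and skeletal muscle. It was at 107, 77.7, 146, 43.3, 63.7 and 48.3 CPM in Ly6D-Gfra2- replicates 1 to 6, 495, 169.9, 169 and 126 in Ly6D+Gfra2- replicates 1, 2, 5 and 6, and 20.8, 27.8 and 96.6 in Ly6D+Gfra2+ replicates 4, 5 and 6. The Ly6D+Gfra2- libraries were the high ones: within each prefix every Ly6D+Gfra2- library lay above every Ly6D-Gfra2- library, and all lay above the Ly6D+Gfra2+ libraries, though the lowest Ly6D+Gfra2- value was under that of the library labelled Ly6D-Gfra2- replicate 3. Group means were 81.1 ± 39.4 (SD, n = 6), 240.1 ± 171 (n = 4) and 48.4 ± 41.9 CPM (n = 3). The log2 fold change was 1.55 (adjusted p = 0.807, SE 0.3903) between Ly6D+Gfra2- and Ly6D-Gfra2- cells, -1.63 (adjusted p = 0.193, SE 0.522) between Ly6D+Gfra2+ and Ly6D+Gfra2- cells and -0.081 (adjusted p = 0.963, SE 0.476) between Ly6D+Gfra2+ and Ly6D-Gfra2- cells by edgeR. It was therefore not called, although its unadjusted p of 9.93e-04 and 0.00617 were the smallest of the 79 members in the first 2 comparisons.

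Of these, the difference between Ly6D+Gfra2+ and Ly6D+Gfra2- cells was the one that came under the threshold in any alternative run. Between Ly6D+Gfra2+ and Ly6D+Gfra2- cells, DESeq2 called Cox6a2 at -1.63 (adjusted p = 0.0496), and edgeR called it without Ly6D+Gfra2+ replicate 6, its highest Ly6D+Gfra2+ library, at -2.63 (adjusted p = 0.0216, where 1.38% of all genes were called). That fit called 0 members in the other comparisons, where it called 0% and 2.8% of all genes, and put Cox6a2 at -1.08 between Ly6D+Gfra2+ and Ly6D-Gfra2- cells. Between Ly6D+Gfra2- and Ly6D-Gfra2- cells, Cox6a2 was at 1.19 without Ly6D+Gfra2- replicate 1, its highest library. Over the edgeR fits that left out 1 library each, the adjusted p between Ly6D+Gfra2+ and Ly6D+Gfra2- cells ranged from 0.0216 to 0.3602. Within prefix T the log2 fold changes were 1.51 between Ly6D+Gfra2- and Ly6D-Gfra2- cells and -1.61 between Ly6D+Gfra2+ and Ly6D+Gfra2- cells, and within prefix P the first was 1.59. Without the library labelled Ly6D-Gfra2- replicate 3, Ly6D+Gfra2- replicate 1 and Ly6D+Gfra2+ replicate 5 together, an alternative chosen after seeing the data, they were 1.29 and -1.20. Cox6a2 overlaps the end of Itgad (chr7:128173933-128205504), and strand use is not stated. Itgad itself was at 11.5, 33.99, 13.1, 1.55, 1.98 and 4.93 CPM in Ly6D-Gfra2- replicates 1 to 6, 0.909, 19.3, 2.61 and 5.28 in Ly6D+Gfra2- libraries and 0, 1.79 and 0.108 in Ly6D+Gfra2+ libraries. Itgad was low in all Ly6D+Gfra2+ libraries, also in replicate 6, where Cox6a2 was the highest of its group. Itgad was also low in Ly6D+Gfra2- replicate 1, where Cox6a2 was highest. The part of shared reads in the Cox6a2 levels was not tested.

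Markers of plasmacytoid dendritic cells, which arise in part from lymphoid progenitors, did not all follow Cox6a2. The 5 markers Siglech, Bst2, Ccr9, Tcf4 and Irf8 summed to 766 to 1992 CPM in Ly6D-Gfra2- libraries, 1593 to 2038 in Ly6D+Gfra2- libraries and 536 to 807 in Ly6D+Gfra2+ libraries, and none of the 5 was at 0 throughout a group. Siglech was at 54.9, 48.3, 299, 17.1, 29.5 and 15.7 CPM in Ly6D-Gfra2- replicates 1 to 6, 346, 276, 319 and 229.9 in Ly6D+Gfra2- libraries and 16.6, 29.6 and 9.101 in Ly6D+Gfra2+ libraries. Irf8 was at 426, 561, 892, 204, 192 and 173 CPM in Ly6D-Gfra2- replicates 1 to 6, 594, 832, 706 and 902 in Ly6D+Gfra2- libraries and 94.03, 180.5 and 266 in Ly6D+Gfra2+ libraries. Tcf4, Bst2 and Ccr9 were at 368, 406 and 463, 11.6, 14.96 and 22.2, and 45.1, 38.1 and 47.3 CPM in Ly6D+Gfra2+ libraries. The library labelled Ly6D-Gfra2- replicate 3, which had the most Siglech and Irf8 of its group, also had the most Cox6a2 of its group. Ly6D+Gfra2+ replicate 6, with the most Cox6a2 of its group, had the most Irf8, Tcf4, Bst2 and Ccr9 and the least Siglech of the 3. Between Ly6D+Gfra2- and Ly6D-Gfra2- cells, Siglech and Irf8 had log2 fold changes of 2.57 and 1.198, while Tcf4, Bst2 and Ccr9 were at 0.18, 0.13 and -0.30. Between Ly6D+Gfra2+ and Ly6D+Gfra2- cells all 5 were negative, at -3.33, -1.69, -0.71, -0.64 and -0.92 in that order. None of these passed the threshold by edgeR. The part of these cells in the Cox6a2 levels was not tested.

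**Figure D4:**
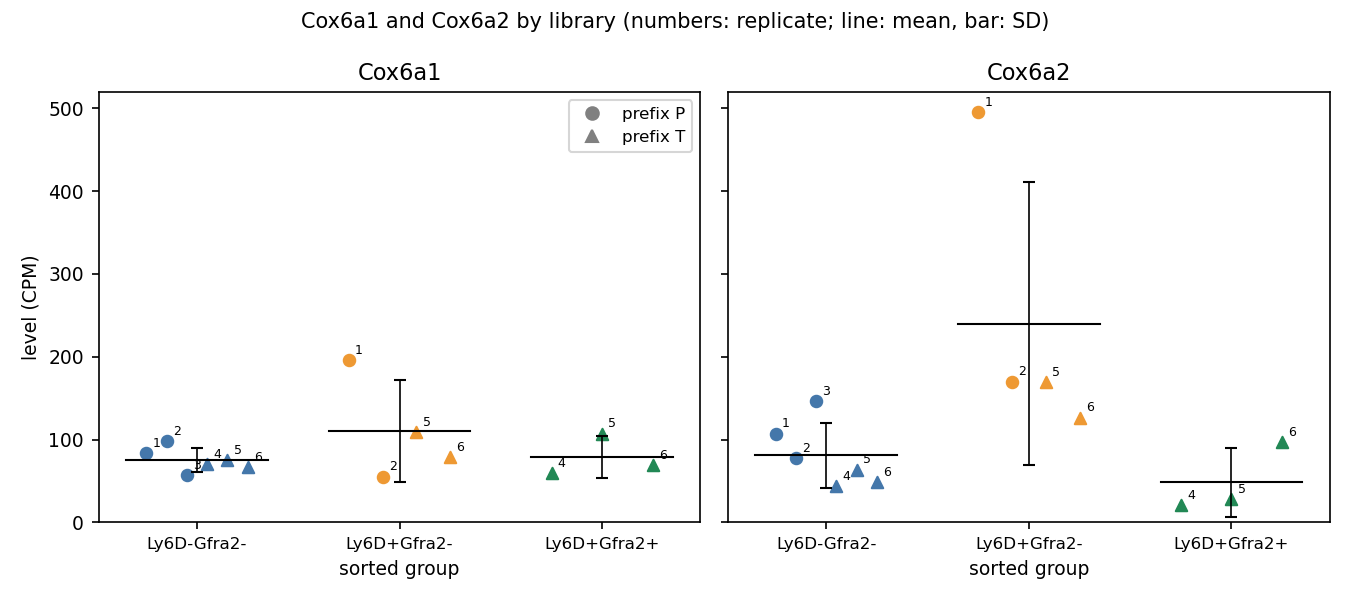
Level of Cox6a1 and Cox6a2 in each library (vertical axis, CPM) by sorted group, with replicate numbers beside the points, the library name prefix as the shape, the group mean as a line and the SD as a bar. Cox6a2 is at 126 to 495 in Ly6D+Gfra2- libraries and 20.8 to 96.6 in Ly6D+Gfra2+ libraries, while the groups overlap for Cox6a1.

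The broadly expressed paralog Cox6a1 (NM_007748, chr5:115345652-115348958) overlapped between all groups. Its levels were 56.8, 72.9 and 97.7 CPM (lowest, median, highest) in Ly6D-Gfra2- libraries, 196, 55.2, 109 and 79.2 in Ly6D+Gfra2- libraries and 58.98, 107 and 69.1 in Ly6D+Gfra2+ libraries, with log2 fold changes of 0.54 (adjusted p = 0.999, SE 0.335) between Ly6D+Gfra2- and Ly6D-Gfra2- cells and -0.34 (adjusted p = 0.797, SE 0.437) between Ly6D+Gfra2+ and Ly6D+Gfra2- cells. The first was 0.078 without Ly6D+Gfra2- replicate 1. Per kb of transcript, Cox6a2 made up 45.6% ± 12.7 of the pair in Ly6D-Gfra2- libraries (SD, n = 6), 63.5% ± 7.75 in Ly6D+Gfra2- libraries (n = 4) and 31.6% ± 19.6 in Ly6D+Gfra2+ libraries (n = 3). Over coding length these means were 53.2%, 70.4% and 37.9%, in the same order. Single Ly6D+Gfra2+ libraries ranged from 17.9% to 54.00%, a wide spread for 3 libraries.

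Other tissue-restricted forms were near absent. Cox4i1, the usual form of subunit 4, held 99.1% to 100% of its pair with Cox4i2 per kb in the 13 libraries. Cox8a held 98.3% to 100% of its set with the muscle form Cox8b and the testis form Cox8c, and Ndufa4 at least 99.8% of its pair with Ndufa4l2. In the 7a set, Cox7a2l held 65.9% ± 8.25 (SD, n = 13), Cox7a2 33.4% ± 8.09 and the muscle form Cox7a1 0.707% ± 0.925. Cox7b was at 63.5, 73.8 and 86.4 CPM (lowest, median, highest) in Ly6D-Gfra2- libraries, 68.8, 62.5, 79.7 and 66.7 in Ly6D+Gfra2- libraries and 20.6, 169.6 and 89.1 in Ly6D+Gfra2+ libraries, and its paralog Cox7b2 was at 0 in all libraries. Cox6a2 was thus the only form known from muscle that reached a level like that of its broad paralog, among the sets compared here.

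Other complex IV members included some whose groups did not overlap. Cox6b1 (NM_025628, chr7:30616971-30626114), which faces the intermembrane space, was at 35.7, 44.02 and 73.02 CPM (lowest, median, highest) in Ly6D-Gfra2- libraries, 43.9, 53.8, 23.4 and 16.2 in Ly6D+Gfra2- libraries and 22.9, 2.03 and 16.5 in Ly6D+Gfra2+ libraries. All Ly6D+Gfra2+ values lay below all Ly6D-Gfra2- values, with a log2 fold change of -1.51 (adjusted p = 0.2796, SE 0.657). Without Ly6D+Gfra2+ replicate 5, the library at 2.03 CPM, it was -1.001. Cox6c (NM_053071, chr15:35931976-35938246) was at 19.8, 33.5 and 38.01 CPM (lowest, median, highest) in Ly6D-Gfra2- libraries, 48.6, 39.5, 26.5 and 27.1 in Ly6D+Gfra2- libraries and 44.9, 71.3 and 44.1 in Ly6D+Gfra2+ libraries, with all Ly6D+Gfra2+ values above all Ly6D-Gfra2- values and a log2 fold change of 0.90 (adjusted p = 0.352, SE 0.449). Cox4i1 was at 70.2, 89.3 and 190.4 CPM (lowest, median, highest) in Ly6D-Gfra2- libraries, 78.5, 88.4, 135 and 94.1 in Ly6D+Gfra2- libraries and 73.8, 193 and 215 in Ly6D+Gfra2+ libraries, with Ly6D+Gfra2+ replicates 5 and 6 high and replicate 4 among the lowest. Cox8a, at 59.4, 85.9 and 102 CPM (lowest, median, highest) in Ly6D-Gfra2- libraries, 133, 75.4, 82.4 and 72.2 in Ly6D+Gfra2- libraries and 72.4, 116 and 119 in Ly6D+Gfra2+ libraries, overlapped between all groups.

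In complex V, Atp5b alone drew 15.3% to 37.1% of all member CPM. Atp5b (NM_016774, chr10:128083307-128090388) was at 1560.0, 1351, 983, 1647, 1967 and 1409 CPM in Ly6D-Gfra2- replicates 1 to 6, 910.3, 855, 1947 and 1631 in Ly6D+Gfra2- libraries and 2092, 2125 and 1786 in Ly6D+Gfra2+ libraries. Its 3 Ly6D+Gfra2+ values were high and close together, but Ly6D-Gfra2- replicate 5 and Ly6D+Gfra2- replicate 5 were as high or nearly so, and 4 of the 5 prefix P libraries were below all prefix T libraries. With the prefix in the fit, its log2 fold change was 0.34 (adjusted p = 0.491, SE 0.203) between Ly6D+Gfra2+ and Ly6D+Gfra2- cells (0.52 without Ly6D+Gfra2- replicate 5) and 0.12 (adjusted p = 0.8401, SE 0.197) between Ly6D+Gfra2+ and Ly6D-Gfra2- cells. The term for prefix T against prefix P was 0.63 (adjusted p = 0.214, SE 0.1600), larger than any group difference of this gene. Atp5a1 (NM_007505) was at 351, 551 and 861 CPM (lowest, median, highest) in Ly6D-Gfra2- libraries, 483, 597, 436 and 404 in Ly6D+Gfra2- libraries and 352, 197 and 325 in Ly6D+Gfra2+ libraries. All Ly6D+Gfra2+ values lay below all Ly6D+Gfra2- values, with log2 fold changes of -0.41 (adjusted p = 0.482, SE 0.239) and, against Ly6D-Gfra2- cells, -0.61 (adjusted p = 0.221, SE 0.231). Without Ly6D+Gfra2+ replicate 5, its lowest library, these were -0.20 and -0.39. The alpha and beta subunit transcripts thus had log2 fold changes of opposite sign between Ly6D+Gfra2+ and Ly6D+Gfra2- cells, neither past the threshold.

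The c subunit, which forms the rotating ring, is encoded by 3 genes for the same mature protein. Atp5g3 held 86.6% ± 1.73, 86.6% ± 5.95 and 77.03% ± 7.33 of the 3 per kb in Ly6D-Gfra2-, Ly6D+Gfra2- and Ly6D+Gfra2+ libraries (SD, n = 6, 4 and 3), Atp5g1 held 11.8% ± 1.48, 12.96% ± 5.55 and 22.2% ± 8.63, and Atp5g2 held no more than 3.08% in any library. Atp5g1 was at 5.78, 6.59 and 14.03 CPM (lowest, median, highest) in Ly6D-Gfra2- libraries, 16.7, 7.61, 8.49 and 3.96 in Ly6D+Gfra2- libraries and 14.7, 13.5 and 7.04 in Ly6D+Gfra2+ libraries, and its groups overlapped. Atp5pb, the stalk subunit b, was at 25.7, 42.3 and 74.3 CPM (lowest, median, highest) in Ly6D-Gfra2- libraries, 63.2, 65.6, 31.7 and 22.7 in Ly6D+Gfra2- libraries and 33.6, 28.4 and 51.9 in Ly6D+Gfra2+ libraries. Within Ly6D-Gfra2- and Ly6D+Gfra2- cells its prefix P libraries were high and its prefix T libraries low. Atp5mpl, a small membrane subunit, was at 21.4, 32.4 and 38.2 CPM (lowest, median, highest) in Ly6D-Gfra2- libraries, 85.7, 27.6, 39.02 and 43.3 in Ly6D+Gfra2- libraries and 16.95, 35.2 and 18.3 in Ly6D+Gfra2+ libraries, highest in Ly6D+Gfra2- replicate 1. Between prefixes 0 members were called, where 0.197% of all genes were, and 5 members had an unadjusted p under 0.05 (6.33% of 79, against 7.70% of all genes): Atp5b, Atp5a1, Atp5pb, Cox6a2 and Ndufa4. The median over the 79 members was -0.24, with 52 negative, beside -0.021 over all genes. A log2 difference beyond 1 was fitted for 7 members, where it was for 18.8% of all genes. Cox6a2 and Ndufa4 were -1.12 (adjusted p = 0.428, SE 0.392) and -0.95 (adjusted p = 0.475, SE 0.351), and Atp5pb was -1.21 (adjusted p = 0.267, SE 0.338).

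Very low readings of single members fell in 4 libraries. Counting members with a median of at least 5 CPM that fell under 10% of their own median in a library, Ly6D+Gfra2+ replicate 5 had 6 of 71 (Cox6b1, Ndufa1, Ndufa5, Ndufa6, Ndufb2 and Ndufb7), Ly6D+Gfra2- replicate 1 had 2 (Ndufa1 and Ndufb2), Ly6D+Gfra2+ replicate 6 had 2 (Ndufa5 and Uqcr11) and Ly6D+Gfra2+ replicate 4 had 1 (Ndufa11). The other 9 libraries had 0. The same reading over all 9751 such genes was 11.00% in Ly6D+Gfra2+ replicate 5, 6.399% in Ly6D+Gfra2- replicate 1, 4.71% in Ly6D+Gfra2+ replicate 4 and 2.88% in Ly6D+Gfra2+ replicate 6, and at most 0.974% elsewhere. The members' shares there, 8.45%, 2.82%, 1.41% and 2.82%, were below those of all genes. Ly6D+Gfra2- replicate 1 and Ly6D+Gfra2+ replicate 5 are the libraries with the fewest identifiers detected. Ndufa1, for example, was at 6.55, 17.6 and 22.1 CPM (lowest, median, highest) in Ly6D-Gfra2- libraries, 0.0649, 16.6, 15.8 and 16.03 in Ly6D+Gfra2- libraries and 24.9, 0.239 and 9.53 in Ly6D+Gfra2+ libraries.

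**Figure D5:**
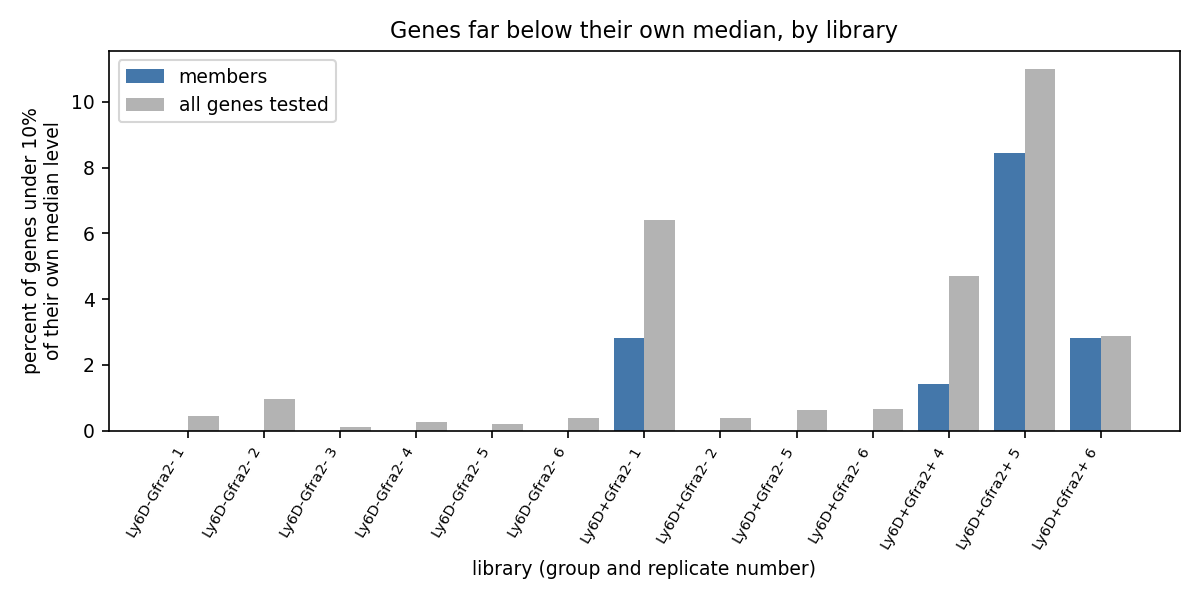
Percent of genes under 10% of their own median level in each library (vertical axis), for the 71 members and all 9751 tested genes with a median of at least 5 CPM. Ly6D+Gfra2+ replicate 5 stands out for both, at 8.45% of members and 11.00% of all genes.

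Other genes of the pathway were read from lists. Of 49 assembly factors of the 5 complexes tested, 77 mitochondrial ribosomal protein genes, 18 citric acid cycle and pyruvate dehydrogenase genes and 20 glycolysis genes, 0 were called in any of the 3 comparisons by edgeR. Between Ly6D+Gfra2+ and Ly6D+Gfra2- cells their median log2 fold changes were 0.19 (28 of 49 positive), 0.30 (50 of 77 positive), 0.59 (14 of 18 positive) and 0.17 (11 of 20 positive), in that order, beside 0.025 over all genes. Between Ly6D+Gfra2- and Ly6D-Gfra2- cells they were -0.15 (21 of 49 positive), -0.19 (30 of 77 positive), -0.081 (6 of 18 positive) and -0.30 (5 of 20 positive), beside -0.0058. Unadjusted p under 0.05, held by 13.2% and 4.71% of all genes in these comparisons, were found for 4, 5, 4 and 4 of them (8.16%, 6.49%, 22.2% and 20%) in the first of these and for 0, 2, 0 and 2 (0%, 2.6%, 0% and 10%) in the second. Between Ly6D+Gfra2+ and Ly6D-Gfra2- cells these were 4, 8, 3 and 2 (8.16%, 10.4%, 16.7% and 10%), against 15.4% of all genes. The 6 assembly factors of complex III had the highest median of the assembly lists between Ly6D+Gfra2+ and Ly6D+Gfra2- cells, 1.83 (5 of 6 positive), with 1 of 6 at an unadjusted p under 0.05. Their median SE was 1.11, and 0 of their 6 intervals lay within a 2-fold change. Of the mitochondrial ribosomal genes, Mrpl24 had the smallest p, at -1.48 (adjusted p = 0.1599, SE 0.441) between Ly6D+Gfra2+ and Ly6D+Gfra2- cells. In glycolysis, the glucose transporter gene Slc2a1 was at 1.86 (adjusted p = 0.141, SE 0.529) in the same comparison, and the aldolase gene Aldoa at -0.91 (adjusted p = 0.997, SE 0.381) between Ly6D+Gfra2- and Ly6D-Gfra2- cells. DESeq2 called Slc2a1 between Ly6D+Gfra2+ and Ly6D+Gfra2- cells (adjusted p = 0.00769) and Mrpl24 between Ly6D+Gfra2+ and Ly6D-Gfra2- cells (adjusted p = 0.00763).

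Of 18 regulators of mitochondrial biogenesis, 1 was called between Ly6D+Gfra2+ and Ly6D+Gfra2- cells, where 0.409% of all genes were: Pprc1, a coactivator of the PGC-1 family that works with nuclear respiratory factors, was higher in Ly6D+Gfra2+ cells, compared with Ly6D+Gfra2- cells. It was at 82.2, 120.0 and 136 CPM (lowest, median, highest) in Ly6D-Gfra2- libraries, 58.3, 72.7, 38.3 and 77.5 in Ly6D+Gfra2- libraries and 190.2, 252 and 148 in Ly6D+Gfra2+ libraries. The log2 fold change was 1.79 (adjusted p = 0.0336, SE 0.336) by edgeR, and -0.90 (adjusted p = 0.807, SE 0.267) between Ly6D+Gfra2- and Ly6D-Gfra2- cells, which was not called. The call is close to the threshold: leaving out 1 library at a time gave adjusted p from 0.02100 to 0.126, over the threshold in 8 of 13 fits (without Ly6D-Gfra2- replicate 1, 2, 4, 5 or 6, Ly6D+Gfra2- replicate 2 or 5, or Ly6D+Gfra2+ replicate 5). By edgeR the call was also lost with library size alone (adjusted p = 0.0506), without 3 libraries together (0.0723) and with a replicate block (0.106). It was lost within prefix T (0.252) and in a fit of only the 2 groups compared (0.786). Of 11 carriers and antioxidant genes, 1 was called between Ly6D+Gfra2+ and Ly6D-Gfra2- cells, where 1.39% of all genes were: Ucp2, an inner-membrane carrier expressed in blood cells, was higher in Ly6D+Gfra2+ cells, compared with Ly6D-Gfra2- cells. It was at 299, 544 and 719 CPM (lowest, median, highest) in Ly6D-Gfra2- libraries, 537, 867, 595 and 685 in Ly6D+Gfra2- libraries and 895, 1245 and 826 in Ly6D+Gfra2+ libraries, with a log2 fold change of 1.22 (adjusted p = 0.0167, SE 0.233). Its adjusted p ran from 0.004202 to 0.06402 with 1 library left out, over the threshold in 4 of 13 fits (without Ly6D-Gfra2- replicate 4, 5 or 6, or Ly6D+Gfra2+ replicate 5). By edgeR the Ucp2 call was also lost with library size alone (adjusted p = 0.0772) and without the prefix term (0.0692).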

How the data were processed

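The authors deposited raw counts per RefSeq identifier for each of the 13 libraries, per the file headers. Per the labels' protocols, sorted cells gave total RNA (Qiagen RNeasy Micro), which was amplified and made into libraries with NuGEN Ovation kits. The submitters' processing notes name FastQC, HISAT, TopHat, HOMER, DESeq and mm10, without roles or versions. Strand use and the handling of reads that fit several places are not given in the sources used here. Without them, reads of overlapping or near-identical genes cannot be told apart, and 27 of the 85 members overlap another gene's span.

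From the counts, identifiers were named from the RefSeq gene table (GRCm38.p6, that is mm10; 23815 of 24072) or GENCODE M21 (144), and 113 kept no name. Counts were tested with edgeR 4.0.16 (quasi-likelihood, TMM, two-sided) in R 4.3.3, with all 13 libraries in 1 fit and terms for group and library name prefix. A filter (filterByExpr, minimum count 10, minimum total 15) kept 12722 genes. P-values were adjusted over all of them, and the script was tested on simulated data. CPM use the TMM-scaled library size, and levels per kb use the longest matching GENCODE M21 transcript. Depth was 6892728 to 23705975 counts per library. Limits for 0 counts use 3 counts and cover counting error only.

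Members and lists were chosen with earlier results of these data known, so no list was tested as a set. Named genes were any member called, the 2 with the smallest p per complex and comparison, all of complex II, Cyc1 and Cycs, the highest and lowest member per complex, paralog sets, and list genes called or with the 2 smallest p per comparison. The alternatives were DESeq2 1.42.0, limma 3.58.1 (voom with quality weights), RLE, library size alone, no filter, a fit without the prefix, a replicate block instead of it, fits on the 2 groups or on 1 prefix, and each library left out. Leaving out 3 libraries together was added after seeing the data. The single values of 1 member are not reported here.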

Additional observations from a re-analysis of the deposited data

Results flagged for a closer look

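Of 62 groups of libraries checked for a library far from the rest (gap to the nearest other library over the group's range, Dixon's 95% value), 5 were flagged, and chance flags about 1 in 20. In Ly6D-Gfra2- replicate 1 the summed complex III level was 556 CPM, against 326 to 399 in the other 5 libraries, and its Uqcrc1 level was 88.9 CPM, against 32.1 to 50.7. In Ly6D+Gfra2- replicate 1 Cox6a2 was at 495 CPM, against 126 to 169.9 in the other 3, Sdha was low at 207 CPM, against 266 to 275, and Sdhc was high at 185 CPM, against 66.1 to 86.3. That library also had the fewest identifiers detected of its group.

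Rows that match the symbols but carry a noncoding RefSeq identifier were left out by the rule and still held counts. Ndufs6, a complex I subunit gene, had a median of 17.02 CPM over the 13 libraries (range 3.32 to 46.1), the copy Ndufs5-ps 11.03 CPM (3.83 to 16.99), and Cox6b2, the testis form of subunit 6b, 9.99 CPM (0 to 28.6). The Ndufs5-ps median is above the 4.05 CPM mean of Ndufs5 itself.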

How the results depend on the processing

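The count of 0 members called held in every alternative run for Ly6D+Gfra2- minus Ly6D-Gfra2- and Ly6D+Gfra2+ minus Ly6D-Gfra2-. For Ly6D+Gfra2+ minus Ly6D+Gfra2- it became 1, Cox6a2, under DESeq2, and 0 to 1 with 1 library left out (1 without Ly6D+Gfra2+ replicate 6). Under library size alone the member median for Ly6D+Gfra2+ minus Ly6D-Gfra2- moved to -0.24, with that of all genes at -0.25, more than the 0.202 SD of library medians. The summed member level of Ly6D+Gfra2+ libraries moved from 5547 to 5126 CPM with unscaled totals. No other value of a comparison moved beyond its spread. Differences near 0 changed sign: Atp5b was 0.098 for Ly6D+Gfra2- minus Ly6D-Gfra2- within prefix T, and for Ly6D+Gfra2+ minus Ly6D-Gfra2- -0.15 under library size alone and -0.0052 without Ly6D-Gfra2- replicate 6. Atp5pb was -0.27 for Ly6D+Gfra2+ minus Ly6D-Gfra2- without the prefix term. Cox6a2 for Ly6D+Gfra2+ minus Ly6D-Gfra2- ranged from -1.08 to 0.28 with 1 library left out, and was 0.054 without Ly6D-Gfra2- replicate 5, 0.0054 without Ly6D+Gfra2- replicate 2, 0.28 without Ly6D+Gfra2+ replicate 4, 0.20 without Ly6D+Gfra2+ replicate 5 and 0.092 without 3 libraries together; the cause was not tested. Same-numbered libraries correlated weakly after the fit (1 of 9 pairs over 0.1, range -0.0344 to 0.137 over genes). Other-numbered pairs ran from -0.103 to 0.0928, with a median of -0.00013. Every library name ends in its replicate number, and the labels do not explain it. Whether the numbers pair libraries cannot be told from these values, and the main fit did not pair them. With the replicate block in place of the prefix, 0 members were called and the medians were -0.15, 0.10 and -0.067 for Ly6D+Gfra2- minus Ly6D-Gfra2-, Ly6D+Gfra2+ minus Ly6D+Gfra2- and Ly6D+Gfra2+ minus Ly6D-Gfra2-. For single genes, Pprc1 or Ucp2 lost its call in 12 fits without 1 library and 7 other fits, Cox6a2, Slc2a1 or Mrpl24 gained one in 1 and 4, and with the replicate block Pprc1 was at an adjusted p of 0.106 by edgeR. Precision was lowest for Atp5g2, the member with the lowest level of those tested per kb, whose SE was 1.697, 2.14 and 1.84 in the 3 comparisons.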

Other observations

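The spread between libraries of a group was read for members and for other genes. The median SD of log2(CPM + 0.5) within groups was 0.617 for the 79 tested members, 0.881 for all 12722 genes and 0.897 for the 8925 genes between the 5th and 95th percentile of the members' mean CPM. By complex it was 0.517 for complex V, 0.529 for II, 0.566 for IV, 0.595 for III and 0.708 for I. No test was made of this difference, and the members are not independent of each other.

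Member transcripts are short, with a median of 732 bases against 2847 for the tested genes with a length. Across the 79 tested members, Spearman's rho between transcript length and mean CPM was 0.393, a description across genes of the same libraries.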
